A study of Mus musculus with 27 samples.

Results

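The genes described here are those of the mouse epidermal envelope, Ivl and Crct1, those of calprotectin, S100a8 and S100a9, and the simple epithelial keratins Krt7, Krt8, Krt18 and Krt19. They are 8 of the 48440 genes in the deposited count table. They were selected on measured values, namely rises under 15 days of KU60019 of genes that are foreign to fibroblasts, so the difference between KU60019 and DMSO at 15 days is given for them as a description and is not tested. The name holds only in part: S100a9 and Krt8 had almost no reads, so calprotectin is represented by S100a8 alone, and Krt18 was not higher in the treated libraries at 15 days.

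The study profiled RNA of primary lung fibroblasts from wild-type C57BL/6 mice, grown at 3% oxygen, in 27 libraries of 9 groups with 3 libraries each. KU60019 is an inhibitor of ATM, the kinase that signals DNA double-strand breaks, and DMSO is its solvent. The groups were KU60019 at 3 µM for 15 d and DMSO for 15 d; KU60019 or DMSO for 15 d followed by 20 d without it; KU60019 at 3 µM for 35 d and DMSO for 35 d; KU60019 or DMSO for 35 d followed by 20 d without it; and cells given 10 Gy of X-rays and harvested 10 d later, which the submitters used as a positive control for senescence. The irradiated group has no mock-irradiated partner and was set against DMSO 15 d. The titles number the libraries S1 to S27 and add a second number, of which each group holds the same 3. These are called culture numbers here, which is only a name. Values below are given in the order of the titles. The labels do not say what the culture numbers mark, be it separate animals, separate cultures or something else. The p-values therefore measure the spread between these libraries, which may be technical.

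Involucrin (Ivl) is a glutamine-rich protein cross-linked under the membrane of differentiating keratinocytes, and Crct1 encodes a small cysteine-rich protein of the same gene cluster. That cluster is the epidermal differentiation complex, which also holds the loricrin, small proline-rich and late cornified envelope genes and, beside them, most S100 genes. S100A8 and S100A9 are calcium-binding proteins that pair as calprotectin, abundant in neutrophils and induced in stressed keratinocytes. Keratins form filaments only as pairs of a type I and a type II chain: Krt7 and Krt8 are type II, Krt18 and Krt19 are type I, and all mark simple epithelia rather than fibroblasts.

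The promoters of the calprotectin pair and of Ivl are shown because neighbouring genes with unlike read counts are the main contrast within the set. S100a8 (chr3:90668978-90670035, plus strand) and S100a9 (chr3:90692632-90695721, minus strand) lie 22.6 kb apart on GRCm38 with 0 protein-coding genes between them. Each window runs from 250 bases before to 50 bases after the start of transcription, in RefSeq on GRCm38.p6, and is printed 5′ to 3′ on the gene's own strand, from chr3:90668821-90669120 for S100a8, chr3:90695672-90695971 for S100a9 and chr3:92573686-92573985 for Ivl. Capitals mark matches on either strand to 4 short motifs. The motif of the TATA box was spelled TATAAA. The motif bound by AP-1 dimers was spelled TGANTCA. That of the C/EBP factors was spelled TTGCNNAA. The GC box, bound by Sp factors, was spelled GGGCGG.
S100a8: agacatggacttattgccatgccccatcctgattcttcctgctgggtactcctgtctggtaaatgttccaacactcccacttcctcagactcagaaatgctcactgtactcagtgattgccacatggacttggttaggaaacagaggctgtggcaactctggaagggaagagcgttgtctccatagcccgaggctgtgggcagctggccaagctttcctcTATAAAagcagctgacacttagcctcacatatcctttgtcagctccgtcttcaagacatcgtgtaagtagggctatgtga
S100a9: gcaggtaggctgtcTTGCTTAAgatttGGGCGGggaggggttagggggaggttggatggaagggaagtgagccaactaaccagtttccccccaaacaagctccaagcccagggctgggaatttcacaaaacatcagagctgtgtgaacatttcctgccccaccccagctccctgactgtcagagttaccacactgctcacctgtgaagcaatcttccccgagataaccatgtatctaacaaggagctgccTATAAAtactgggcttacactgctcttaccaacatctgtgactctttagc
Ivl: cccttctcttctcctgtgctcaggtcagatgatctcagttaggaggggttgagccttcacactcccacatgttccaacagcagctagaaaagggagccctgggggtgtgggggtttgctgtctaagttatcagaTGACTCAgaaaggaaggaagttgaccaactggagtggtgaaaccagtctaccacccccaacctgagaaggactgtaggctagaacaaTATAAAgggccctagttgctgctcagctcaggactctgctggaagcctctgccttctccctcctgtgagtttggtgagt

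In these windows S100a8 held a TATAAA that began 30 bases before the start and no match to the other motifs. S100a9 held a TATAAA beginning at position 1, a TTGCNNAA at -236 and a GGGCGG at -223. Ivl held a TATAAA at -29 and a TGANTCA at -116. Of all 32851 promoter windows of this length, 13.6% held TATAAA, 7.81% TGANTCA, 10.8% TTGCNNAA and 35.7% GGGCGG. Of the keratins with a window, Krt7 held 4 GGGCGG matches, Krt8 held overlapping TATAAA matches at -3 and -1, and Krt18 held none of the 4 motifs. Windows were found for 6 of the 8 genes, without Crct1 and Krt19.

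Ivl lies at chr3:92570902-92573735 and Crct1 at chr3:93014205-93015687, both on the minus strand, 440 kb apart with 25 protein-coding genes between them. Krt8 (chr15:101996698-102004482, minus strand) and Krt18 (chr15:102028180-102032027, plus strand) are neighbours, 23.7 kb apart. Krt7 is at chr15:101411043-101430313 on the plus strand, and Krt19 at chr11:100140810-100148665 on the minus strand. Exons of Krt7 overlap Gm671 and exons of Krt8 overlap Gm36026 on the other strand. No source used here says whether reads were counted by strand, so reads of these genes and of their partners cannot be told apart.

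The libraries held 20659745 to 50859493 counted reads, with a median of 31265114. Levels are in CPM, the read count relative to library size, with library sizes scaled by TMM, a factor that ranged from 0.694 to 1.12. The 11 fibroblast markers all had reads in every group. Their summed level was 12321 to 63404 CPM over all libraries, and it was 12547 to 15140 CPM in KU60019 15 d, against 35068 to 52099 CPM in DMSO 15 d. The collagen genes and Fn1 had the most reads of this list. Of the 11 markers, 5 were called lower and 2 higher in KU60019 15 d by edgeR, and the 2 called higher were Vim and S100a4. Beside them, 17.1% of all genes were called lower and 13.2% higher. In bulk RNA, fewer cells of a type and less RNA per cell cannot be told apart. Nuclear rRNA genes took over 0.4% of reads in 4 libraries: S19 and S20 of DMSO 35 d removed (2.91% and 0.431%), S7 of DMSO 15 d removed and S27 of the irradiated group.

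S100a9 and Krt8 were at the edge of detection. S100a9 had 3 reads in all 27 libraries, of which 1 came from a KU60019 35 d removed library and 2 from an irradiated library. It made up 0.0461% of the reads of the calprotectin pair (3 of 6502, exact 95% interval 0.00952% to 0.135%, covering counting error only). In KU60019 15 d, where S100a8 was highest, S100a9 had 0 of 4371 reads of the pair, which allows a share of up to 0.0686% when the limit is set at 3 reads. Krt8 had 21 reads in 15 libraries, at most 4 in 1 library, against 433 reads of Krt18. That is 4.63% of the reads of the Krt8 and Krt18 pair (exact 95% interval 2.89% to 6.98%). Neither S100a9 nor Krt8 passed the filter on low counts, so 6 of the 8 genes entered the tests.

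**Figure D1:**
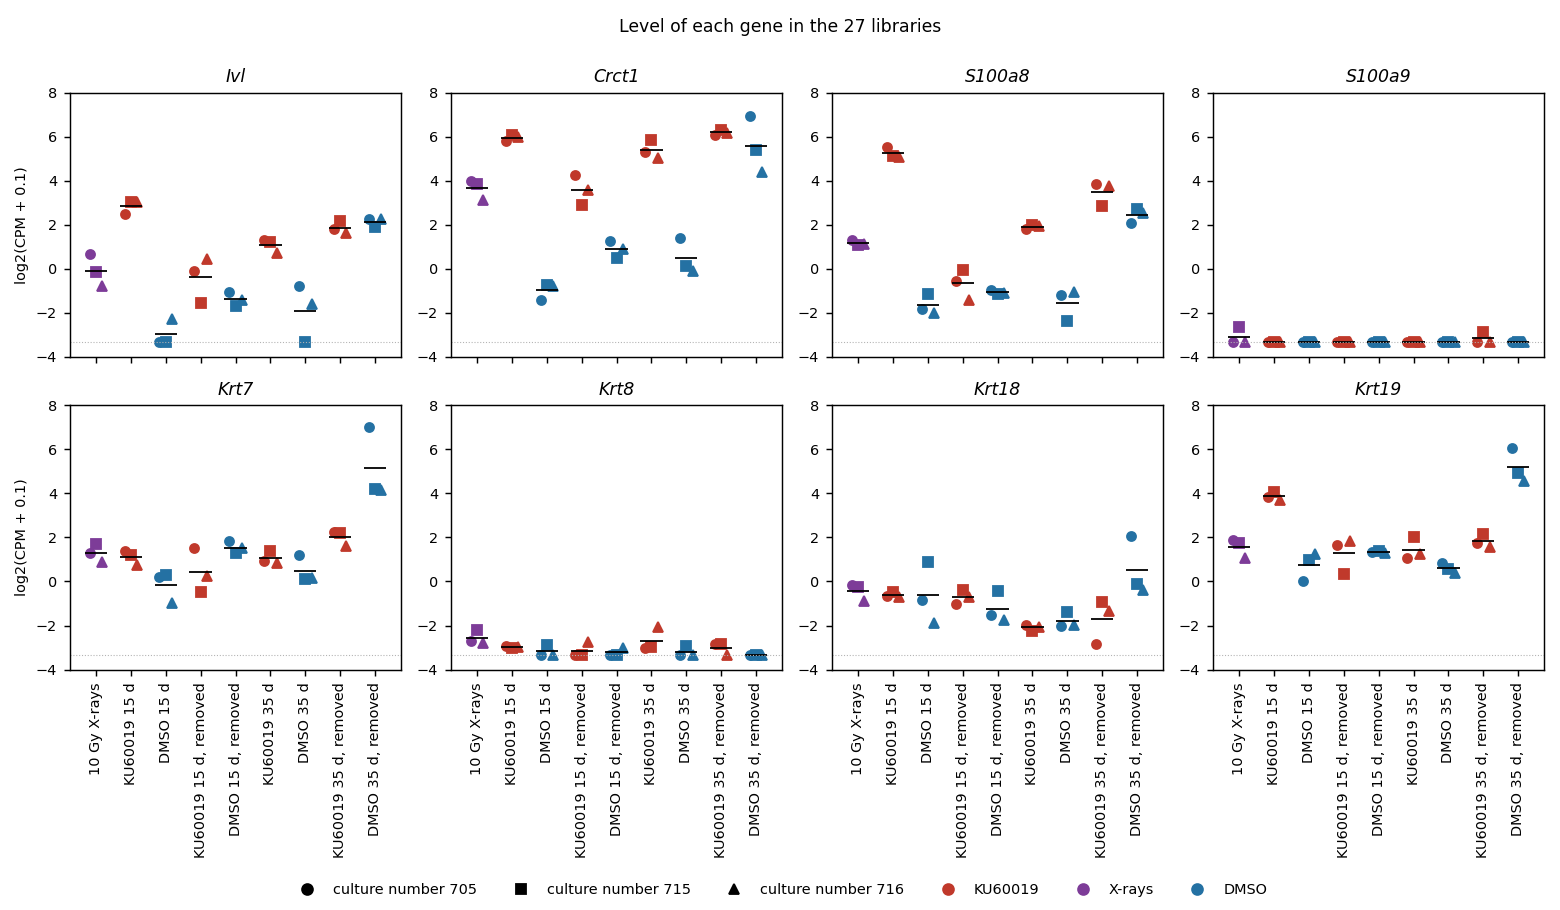
Level of each gene in each of the 27 libraries, as log2(CPM + 0.1) on the vertical axis, with groups on the horizontal axis. Points are libraries, marker shapes give the culture number, black bars are group means of the plotted values and the dotted line is a CPM of 0. S100a9 and Krt8 lie at or near the dotted line, and Krt7, Krt18 and Krt19 are highest in DMSO 35 d removed.

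At 15 days, the contrast that named the genes, the epidermal envelope genes and S100a8 were nearly absent from DMSO libraries. Ivl was at 5.45, 8.11 and 8.21 CPM in KU60019 15 d, against 0, 0 and 0.109 CPM in DMSO 15 d. The DMSO value rests on 5 reads in all. These came from library S3, and without it the fitted log2 difference was 10.8, a value that then depends on the prior count. Every KU60019 library stood above every DMSO library, and the fitted log2 difference was 7.20 ± 0.77 (SE, n = 3 each). Crct1 was at 56.0, 68.3 and 62.8 CPM in KU60019 15 d, against 0.275, 0.502 and 0.479 CPM in DMSO 15 d, a log2 difference of 7.20 ± 0.63. S100a8 was at 46.5, 35.0 and 33.4 CPM in KU60019 15 d, against 0.183, 0.358 and 0.153 CPM in DMSO 15 d, a log2 difference of 7.42 ± 0.40. In both genes the KU60019 libraries lay close together and far from their controls.

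The keratins differed among themselves in the same libraries. Krt19 was at 14.3, 16.8 and 12.8 CPM in KU60019 15 d, against 0.916, 1.86 and 2.31 CPM in DMSO 15 d, a log2 difference of 3.09 ± 0.41, with no overlap. Krt7 was at 2.48, 2.17 and 1.60 CPM in KU60019 15 d, against 1.04, 1.11 and 0.414 CPM in DMSO 15 d, a log2 difference of 1.32 ± 0.66. The Krt7 levels were low in both groups, and the groups did not overlap. Krt18 was at 0.533, 0.626 and 0.507 CPM in KU60019 15 d, against 0.458, 1.72 and 0.174 CPM in DMSO 15 d, a log2 difference of -0.44 ± 0.69. The KU60019 libraries for Krt18 lay inside the range of the DMSO libraries, and without DMSO library S2 the difference was 0.86. Of all 18684 genes fitted, 13.2% were called higher and 17.1% lower in this contrast, and 21.8% had KU60019 libraries above all DMSO libraries. Nothing is read from the set's own values here.

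Per unit of length, on the authors' TPM scale, Crct1 averaged 148 TPM and S100a8 130 TPM in KU60019 15 d, against 15.7 TPM for Krt19 and 6.44 TPM for Ivl in the same libraries. Among 21679 protein-coding genes ranked by mean TPM, Crct1 stood at place 761 in KU60019 15 d and 11597 in DMSO 15 d. S100a8 stood at place 853 in KU60019 15 d and 11912 in DMSO 15 d. Krt19 stood at place 5194 in KU60019 15 d and 10843 in DMSO 15 d.

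After 35 days of exposure, in libraries that did not name the genes, Ivl, Crct1 and S100a8 were higher under KU60019 and no keratin passed the test in the fit of all 27 libraries. Ivl was at 2.34, 2.20 and 1.54 CPM in KU60019 35 d, against 0.485, 0 and 0.229 CPM in DMSO 35 d (log2 difference 3.14 ± 0.62, adjusted p = 0.00118, edgeR). Crct1 was at 40.1, 58.2 and 33.2 CPM in KU60019 35 d, against 2.57, 1.01 and 0.839 CPM in DMSO 35 d (log2 difference 4.96 ± 0.55, adjusted p = 2.11e-06, edgeR). S100a8 was at 3.45, 3.90 and 3.70 CPM in KU60019 35 d, against 0.335, 0.0943 and 0.381 CPM in DMSO 35 d (log2 difference 3.70 ± 0.37, adjusted p = 5.63e-07, edgeR). In all 3 genes each KU60019 library was above each DMSO library, as in 20.9% of all genes.

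Krt19 was at 1.98, 3.90 and 2.25 CPM in KU60019 35 d, against 1.71, 1.38 and 1.20 CPM in DMSO 35 d, without overlap but with a log2 difference of 0.94 ± 0.41 that did not pass (adjusted p = 0.119, edgeR). With only the compared groups in the fit, Krt19 passed (0.98, adjusted p = 0.0459, edgeR). Krt7 was at 1.82, 2.54 and 1.68 CPM in KU60019 35 d, against 2.24, 0.974 and 1.01 CPM in DMSO 35 d, with overlap (log2 difference 0.56 ± 0.63, adjusted p = 0.576, edgeR). Krt18 was at or under 0.283 CPM in all 6 libraries (log2 difference -0.48 ± 0.90, adjusted p = 0.749, edgeR). Of the 6 genes fitted, 3 were called higher and 0 lower, where 9.7% of all genes were called higher and 8.4% lower. The median log2 difference was 2.04 over the 6 genes and -0.01 over all genes.

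Other genes of the cornified envelope were counted in a list of 51 genes of the epidermal differentiation complex that leaves out Ivl and Crct1. Only 10 of the 51 had enough reads to be fitted. Of these, 5 rose in KU60019 35 d while 0 fell, beside 9.7% of all genes called higher and 8.4% lower. The filter admits a gene that has enough reads in the libraries of 1 group alone, so counts of this list are partly set by it. Sprr1a, a small proline-rich envelope precursor, was at 1.28, 1.76 and 0.983 CPM in KU60019 35 d, against 0.186, 0.220 and 0.114 CPM in DMSO 35 d (log2 difference 2.99 ± 0.43, adjusted p = 4.02e-05, edgeR). Lce1g, a late cornified envelope gene, had 51, 84 and 24 reads in KU60019 35 d, against 0, 1 and 2 reads in DMSO 35 d (adjusted p = 3.21e-05, edgeR). Loricrin, the main protein of the mature envelope, had 43 reads (Lor) and filaggrin 1 read (Flg) in all 27 libraries. Neither Lor nor Flg reached the filter on low counts.

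Among 16 genes for envelope cross-linking and desmosomes, of which 11 were fitted, 3 rose and 0 fell in KU60019 35 d. Beside this and the other lists of this paragraph, 9.7% of all genes were called higher and 8.4% lower. Perp, a desmosomal membrane protein and p53 target, was at 3.15, 6.13 and 4.07 CPM in KU60019 35 d, against 0.298, 0.189 and 0.248 CPM in DMSO 35 d (log2 difference 4.17 ± 0.33, adjusted p = 3.63e-08, edgeR). Of 21 regulators known to act on epidermal genes, 14 were fitted, 1 rose and 1 fell, which is near the background. Grhl1, a grainyhead-like factor of the epidermis, had a log2 difference of 3.83 ± 0.64 (adjusted p = 2.14e-04, edgeR). Stat3 had a log2 difference of -0.72 ± 0.16 (adjusted p = 0.00347, edgeR). Of 8 receptors and adaptors through which calprotectin is known to signal, 3 rose: Bsg by 0.89 ± 0.14 on the log2 scale (adjusted p = 1.21e-04), Ager (RAGE) by 1.46 ± 0.32 (adjusted p = 0.00264) and Cd36 by 6.60 ± 1.31 (adjusted p = 0.00143, all edgeR). Cd36 had 158 reads in all 27 libraries and no reads in DMSO 35 d, so the size of its difference depends on the prior count.

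**Figure D2:**
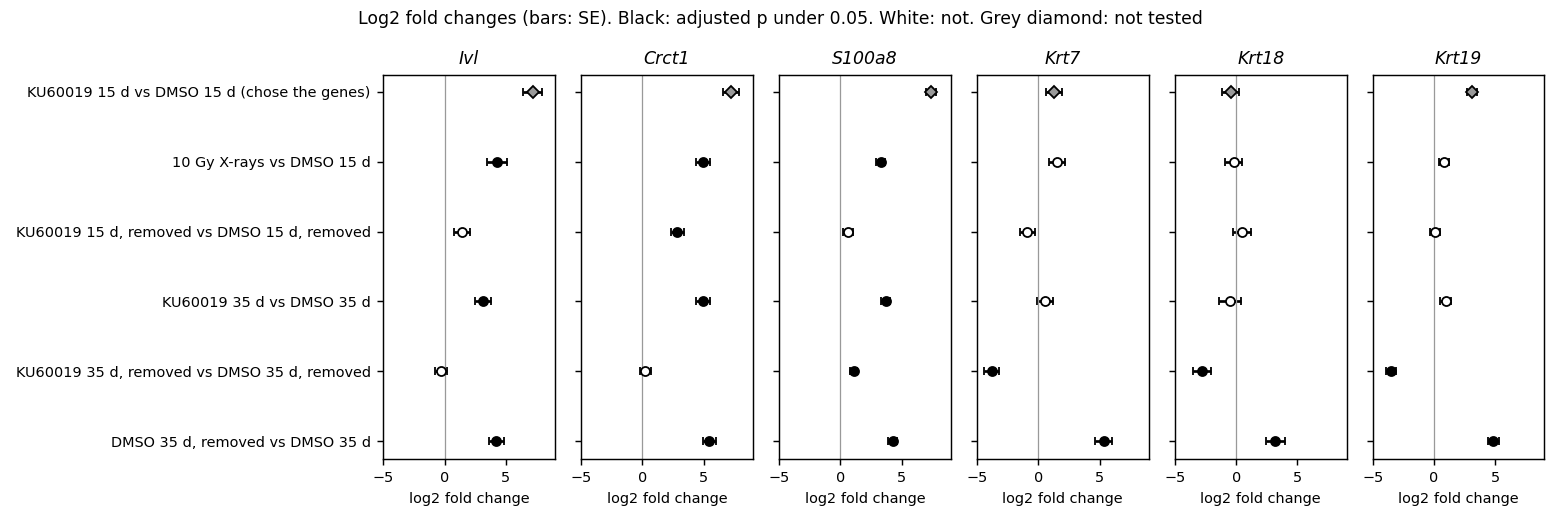
Log2 fold change (horizontal axis) of the 6 fitted genes in 6 comparisons (vertical axis), each the first named group over the second, with SE bars. Grey diamonds mark the contrast that named the genes, which was not tested, black points have an adjusted p under 0.05 by edgeR and white points do not. Ivl, Crct1 and S100a8 are black for X-rays and for KU60019 35 d, and all 6 genes are black for DMSO 35 d removed against DMSO 35 d.

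When the inhibitor was withdrawn after 15 days, Crct1 was called higher than in the matching DMSO libraries, and the other 5 fitted genes were not called by edgeR. Crct1 was at 19.03, 7.47 and 11.8 CPM in KU60019 15 d removed, against 2.30, 1.31 and 1.74 CPM in DMSO 15 d removed, with no overlap (log2 difference 2.85 ± 0.51, adjusted p = 3.08e-04, edgeR). S100a8 was at 0.587, 0.862 and 0.280 CPM in KU60019 15 d removed, against 0.409, 0.348 and 0.368 CPM in DMSO 15 d removed, with overlap (log2 difference 0.64 ± 0.41, adjusted p = 0.205, edgeR). Ivl was at 0.848, 0.246 and 1.26 CPM in KU60019 15 d removed, against 0.378, 0.214 and 0.270 CPM in DMSO 15 d removed (log2 difference 1.44 ± 0.64, adjusted p = 0.0665, edgeR). For Ivl, library S11 of KU60019 15 d removed lay among the controls and the other two above them. Without it, Ivl passed (log2 difference 1.86, adjusted p = 0.0247, edgeR), as it did with all libraries by DESeq2 (1.48, adjusted p = 0.0155).

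Krt7, Krt18 and Krt19 had overlapping groups at this stage. Of the other fitted keratins, Krt10 was called higher (log2 difference 1.42 ± 0.28, adjusted p = 5.03e-04, edgeR). Krt80 (-3.26 ± 0.94, adjusted p = 0.00761) and Krt20 (-2.22 ± 0.72, adjusted p = 0.0147, both edgeR) were called lower. Krt19 was at 3.10, 1.15 and 3.50 CPM in KU60019 15 d removed, against 2.39, 2.49 and 2.38 CPM in DMSO 15 d removed (log2 difference 0.09 ± 0.40, adjusted p = 0.865, edgeR). Krt7 was at 2.77, 0.616 and 1.07 CPM in KU60019 15 d removed, against 3.43, 2.36 and 2.75 CPM in DMSO 15 d removed (log2 difference -0.90 ± 0.63, adjusted p = 0.242, edgeR). On log2(TPM + 0.1) with limma, Krt7 was called lower (-1.50, adjusted p = 0.0128). On that scale the median log2 difference of all genes was also negative, at -0.59, against -0.01 in the edgeR fit. Krt18 had a log2 difference of 0.50 ± 0.75 (adjusted p = 0.599, edgeR). The count of 1 gene called higher of 6 stands beside 24.7% of all genes called higher and 24% called lower, so it is near the background.

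Other S100 genes rose in these libraries. Of 17 S100 genes, S100a8 and S100a9 included, 14 were fitted, and 10 rose while 0 fell in KU60019 15 d removed. Of all genes, 24.7% were called higher and 24% lower. S100a4, a fibroblast-expressed member, was at 101, 368 and 204 CPM in KU60019 15 d removed, against 28.0, 22.1 and 38.1 CPM in DMSO 15 d removed (log2 difference 2.93 ± 0.46, adjusted p = 1.36e-04, edgeR). S100a10, the partner of annexin A2, had a log2 difference of 2.22 ± 0.33 (adjusted p = 1.02e-04, edgeR). Of the 10 fitted genes of the epidermal differentiation complex list, 1 rose and 0 fell, and it was Sprr1a (log2 difference 2.02 ± 0.47, adjusted p = 0.00152, edgeR).

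The difference under 35 days of exposure was set against that after withdrawal at 15 days, in a test that shares the KU60019 35 d and DMSO 35 d libraries with the comparison above. S100a8 differed less between the withdrawn groups than between the 35 d groups (-3.06 on the log2 scale, adjusted p = 0.00118, edgeR). Crct1 also differed less (-2.11, adjusted p = 0.0470, edgeR), but this lost its call when any of 9 single libraries was left out (adjusted p from 0.0585 to 0.112), under RLE scaling and without the filter on low counts. For Ivl the test gave -1.70 with an adjusted p of 0.186 (edgeR). The 2 genes called lower and 0 called higher stand beside 7.99% of all genes called lower and 7.95% higher.

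After 35 days of exposure and 20 days without the agent, the epidermal genes and the keratins parted. Ivl was at 3.43, 4.38 and 2.96 CPM in KU60019 35 d removed, against 4.68, 3.62 and 4.77 CPM in DMSO 35 d removed, with overlap (log2 difference -0.28 ± 0.51, adjusted p = 0.675, edgeR). Crct1 was at 68.1, 79.3 and 72.3 CPM in KU60019 35 d removed, against 125, 42.1 and 20.7 CPM in DMSO 35 d removed (log2 difference 0.23 ± 0.44, adjusted p = 0.689, edgeR). The 3 DMSO libraries for Crct1 ranged around the KU60019 libraries, and without DMSO library S19 the difference was 1.22 (adjusted p = 0.0139, edgeR). With all libraries, Crct1 was also called higher on log2(TPM + 1) (1.08, adjusted p = 0.0268) and log2(TPM + 0.1) (1.09, adjusted p = 0.0363, both limma). Its call changed under 4 of 16 alternatives. S100a8 was at 14.2, 7.06 and 13.5 CPM in KU60019 35 d removed, against 4.12, 6.49 and 5.70 CPM in DMSO 35 d removed, with no overlap, as 26.1% of all genes (log2 difference 1.09 ± 0.29, adjusted p = 0.00365, edgeR).

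Krt7 was at 4.59, 4.46 and 2.94 CPM in KU60019 35 d removed, against 131, 18.4 and 17.9 CPM in DMSO 35 d removed (log2 difference -3.80 ± 0.62, adjusted p = 3.04e-05, edgeR). Krt19 was at 3.28, 4.35 and 2.86 CPM in KU60019 35 d removed, against 67.4, 30.0 and 23.5 CPM in DMSO 35 d removed (log2 difference -3.53 ± 0.41, adjusted p = 3.25e-07, edgeR). Krt18 was at 0.0386, 0.427 and 0.294 CPM in KU60019 35 d removed, against 4.12, 0.838 and 0.659 CPM in DMSO 35 d removed (log2 difference -2.80 ± 0.76, adjusted p = 0.00422, edgeR). All 3 keratins were lower than in DMSO 35 d removed without overlap, as were 23.5% of all genes. Library S19 of DMSO 35 d removed was the highest for each of them. Without it, Krt18 no longer passed (log2 difference -1.54, adjusted p = 0.0928, edgeR).

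Of the 6 genes, 1 was called higher and 3 lower after withdrawal at 35 days, where 24.4% of all genes were called higher and 24.5% lower. Libraries S19 and S20 of DMSO 35 d removed are those with raised rRNA. With the 4 libraries over 0.4% left out, which leaves 1 library in that group and assumes that it varies like the others, Krt18 did not pass (-1.32, adjusted p = 0.324), S100a8 did not pass (1.06, adjusted p = 0.0751) and Crct1 passed (1.86, adjusted p = 0.00710, all edgeR). The part of rRNA in these results was not tested further.

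The wider families split in the same comparison. Of the 10 fitted genes of the epidermal differentiation complex list, 7 were called higher and 0 lower in KU60019 35 d removed. Beside them, 24.4% of all genes were called higher and 24.5% lower. Some list genes passed the filter mainly through this group, such as Sprr2g with 77 of its 119 reads there, so the count is partly set by the filter. Lce1g was at 26.3, 23.6 and 24.8 CPM in KU60019 35 d removed, against 3.91, 1.72 and 1.67 CPM in DMSO 35 d removed (log2 difference 3.39 ± 0.48, adjusted p = 4.98e-06, edgeR). Of the 14 fitted S100 genes, 3 were called higher and 9 lower. S100a4 was at 19.5, 19.01 and 25.9 CPM in KU60019 35 d removed, against 1489, 756 and 543 CPM in DMSO 35 d removed (log2 difference -5.43 ± 0.52, adjusted p = 1.88e-08, edgeR). Of 50 keratin genes, 7 were fitted, 1 was called higher and 4 lower. The 1 called higher was Krt20, an intestinal and urothelial type I keratin (log2 difference 1.47 ± 0.53, adjusted p = 0.0260, edgeR). Among regulators, 6 were called higher and 2 lower, led by Cebpa (log2 difference 2.37 ± 0.24, adjusted p = 3.96e-08, edgeR).

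The DMSO cultures themselves changed late. In DMSO 35 d removed all 6 genes were called higher than in DMSO 35 d, beside 31.5% of all genes called higher and 32.6% called lower. This comparison shares libraries with both comparisons at 35 days. Krt7 was at 131, 18.4 and 17.9 CPM in DMSO 35 d removed, against 2.24, 0.974 and 1.01 CPM in DMSO 35 d (log2 difference 5.33 ± 0.68, adjusted p = 1.00e-06, edgeR). Krt19 was at 67.4, 30.0 and 23.5 CPM in DMSO 35 d removed, against 1.71, 1.38 and 1.20 CPM in DMSO 35 d (log2 difference 4.82 ± 0.44, adjusted p = 1.09e-08, edgeR). Crct1 was at 125, 42.1 and 20.7 CPM in DMSO 35 d removed, against 2.57, 1.01 and 0.839 CPM in DMSO 35 d (log2 difference 5.46 ± 0.56, adjusted p = 5.87e-08, edgeR). No library of the later group fell among the earlier ones for any of the 3 genes, as in 29.6% of all genes.

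S100a8 was at 4.12, 6.49 and 5.70 CPM in DMSO 35 d removed, against 0.335, 0.0943 and 0.381 CPM in DMSO 35 d (log2 difference 4.27 ± 0.37, adjusted p = 5.64e-09, edgeR). Ivl was at 4.68, 3.62 and 4.77 CPM in DMSO 35 d removed, against 0.485, 0 and 0.229 CPM in DMSO 35 d (log2 difference 4.22 ± 0.63, adjusted p = 7.58e-06, edgeR). Krt18 had a log2 difference of 3.20 ± 0.77 (adjusted p = 0.00115, edgeR), which did not pass without the 4 libraries with raised rRNA (1.73, adjusted p = 0.154, edgeR). In the families, 12 of 14 S100 genes, 6 of 7 keratins and 5 of 10 genes of the epidermal differentiation complex list rose, while 1 gene of that list fell, the trichohyalin gene Tchh (log2 difference -1.49 ± 0.25, adjusted p = 3.67e-05, edgeR). S100a4 was at 1489, 756 and 543 CPM in DMSO 35 d removed, against 30.1, 13.8 and 17.4 CPM in DMSO 35 d (log2 difference 5.51 ± 0.52, adjusted p = 1.74e-08, edgeR). Fosl1, an AP-1 subunit reported at the involucrin promoter in human keratinocytes, rose by 2.37 ± 0.33 on the log2 scale (adjusted p = 3.01e-06), while Fos fell by 4.46 (adjusted p = 2.78e-07) and Cebpa fell by 2.78 (adjusted p = 4.37e-09, all edgeR).

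Several markers of mesothelium, epithelia and keratinocytes also changed between these 2 DMSO groups, where the keratins reached their highest levels. Of all genes, 31.5% were called higher and 32.6% lower there, so changes in a few genes of a short list are common. Of the mesothelial markers, Msln (log2 difference 3.27 ± 0.58, adjusted p = 5.19e-05, edgeR) and Upk1b (3.80 ± 1.22, adjusted p = 0.00985, edgeR) rose in DMSO 35 d removed, and Wt1 fell by 3.18 on the log2 scale (adjusted p = 8.69e-06, edgeR). The list summed to 3.26 to 18.4 CPM in DMSO 35 d removed, against 3.72 to 4.99 CPM in DMSO 35 d. Of the simple epithelial markers, Cldn3 (7.23 ± 0.88, adjusted p = 5.90e-07, edgeR) and Esrp2 (0.78 ± 0.22, adjusted p = 0.00391, edgeR) rose and 0 of 4 fitted fell. Of the keratinocyte markers, Lgals7 (4.17 ± 0.77, adjusted p = 7.94e-05, edgeR) and Krt10 (0.67 ± 0.27, adjusted p = 0.0388, edgeR) rose and 0 of 3 fitted fell, and the list summed to 5.17 to 5.60 CPM in DMSO 35 d removed, against 2.29 to 3.24 CPM in DMSO 35 d.

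Of the 11 fibroblast markers, 8 fell and 3 rose, beside 32.6% of all genes called lower and 31.5% higher. Those that fell included the collagen gene Col3a1 (log2 difference -3.98 ± 0.38, adjusted p = 2.10e-08, edgeR) and the fibronectin gene Fn1 (-2.64 ± 0.29, adjusted p = 1.24e-07, edgeR). Those that rose were S100a4 (5.51 ± 0.52, adjusted p = 1.74e-08), Vim (1.17 ± 0.20, adjusted p = 2.93e-05) and Thy1 (0.59 ± 0.20, adjusted p = 0.0145, all edgeR). The collagen genes and Fn1 had the most reads of this list. The fibroblast list summed to 15459 to 18882 CPM in DMSO 35 d removed, against 42920 to 52753 CPM in DMSO 35 d. The part of these markers in the rise of the keratins was not tested.

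**Figure D3:**
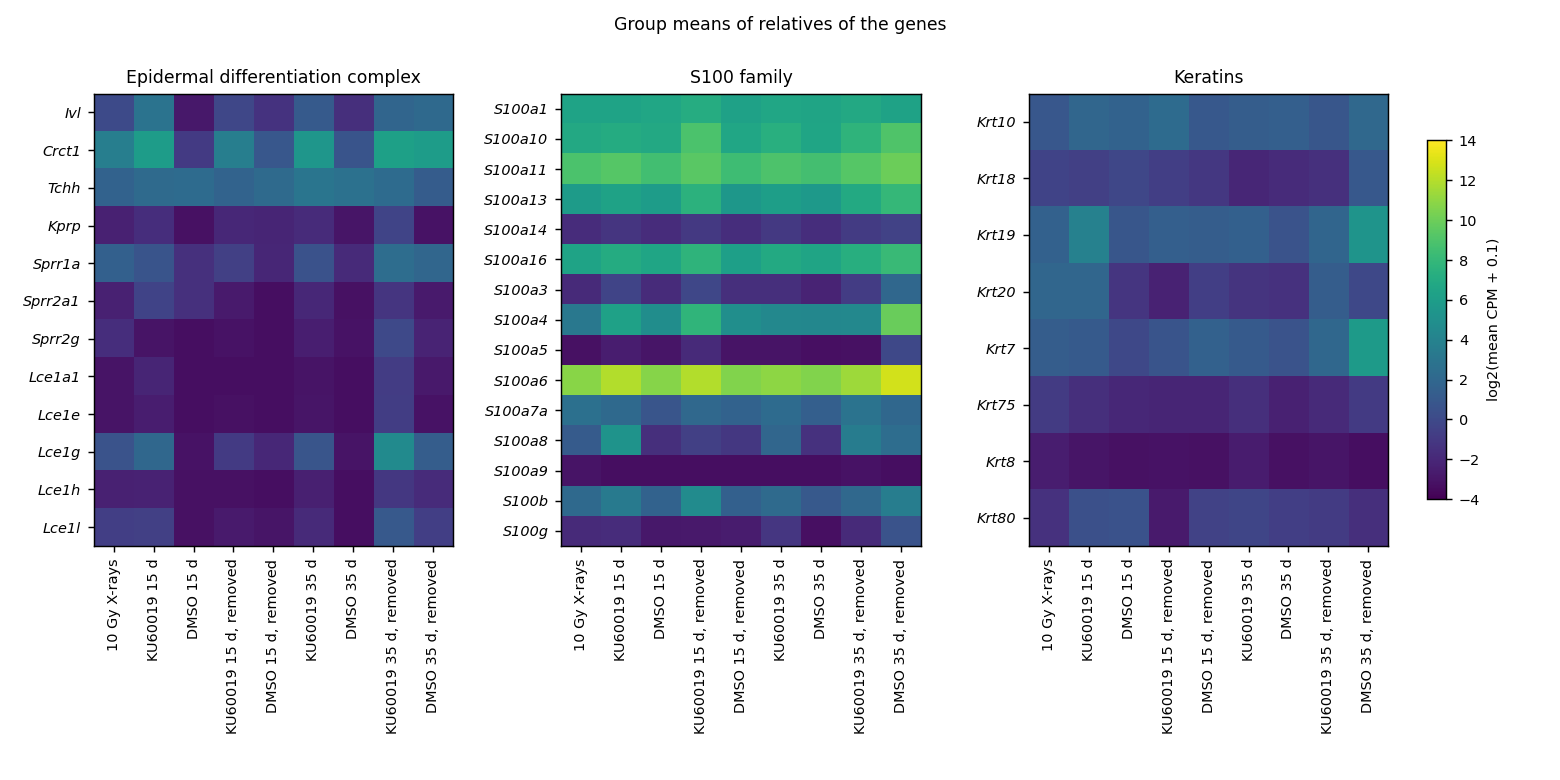
Group mean levels, as log2(mean CPM + 0.1) in colour, of the fitted genes of the epidermal differentiation complex, S100 family and keratins, with Ivl, Crct1, S100a9 and Krt8 added. Each line is a gene and each column a group. S100a9 and Krt8 stay at the dark end throughout, while S100a6 is bright in every group.

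The direct test of the KU60019 difference after withdrawal at 35 days against that under 35 days of exposure shares libraries with each of the last 3 comparisons. It was called for 5 of the 6 genes, all with a smaller or more negative difference after withdrawal, beside 16.6% of all genes called lower and 15.8% higher. The values were -4.72 for Crct1 (adjusted p = 2.72e-05), -4.46 for Krt19 (adjusted p = 5.24e-06), -4.36 for Krt7 (adjusted p = 6.98e-04), -3.41 for Ivl (adjusted p = 0.00281) and -2.61 for S100a8 (adjusted p = 2.52e-04, all edgeR, log2 scale). Krt18 gave -2.32 with an adjusted p of 0.145 (edgeR). The levels behind these values were not low in the withdrawn KU60019 libraries: Crct1 averaged 73.2 CPM in KU60019 35 d removed and 43.8 CPM in KU60019 35 d.

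Irradiation, the submitters' positive control for senescence, was accompanied by higher Ivl, Crct1 and S100a8, at lower levels than in KU60019 15 d. The DMSO 15 d libraries used here also named the genes, so the comparison was repeated with DMSO 35 d. Ivl was at 1.48, 0.818 and 0.488 CPM in irradiated cells (log2 difference 4.27 ± 0.82 over DMSO 15 d, adjusted p = 4.19e-04, and 2.03 over DMSO 35 d, adjusted p = 0.0223, edgeR). Crct1 was at 15.9, 14.2 and 8.56 CPM in irradiated cells (log2 difference 4.93 ± 0.61 over DMSO 15 d, adjusted p = 3.26e-06, and 3.20 over DMSO 35 d, adjusted p = 1.51e-04, edgeR). S100a8 was at 2.36, 2.04 and 2.09 CPM in irradiated cells (log2 difference 3.27 ± 0.39 over DMSO 15 d, adjusted p = 2.54e-06, and 2.93 over DMSO 35 d, adjusted p = 1.02e-05, edgeR). Each irradiated library was above every library of both DMSO groups for these genes, and 22.1% of all genes stood so above DMSO 15 d. The share above DMSO 35 d was not counted. For Ivl the margin over DMSO 35 d was narrow, at 0.488 CPM in irradiated library S27 against 0.485 CPM in DMSO 35 d library S13.

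Krt7, Krt18 and Krt19 did not pass in irradiated cells in the fit of all 27 libraries. Of the other fitted keratins, Krt20 was called higher over DMSO 15 d (log2 difference 3.42 ± 0.56, adjusted p = 8.71e-05, edgeR). Krt80 (-2.40 ± 0.73, adjusted p = 0.0154) and Krt10 (-0.83 ± 0.28, adjusted p = 0.0276, both edgeR) were called lower. Krt7 was at 2.33, 3.15 and 1.77 CPM in irradiated cells, against 1.04, 1.11 and 0.414 CPM in DMSO 15 d (log2 difference 1.55 ± 0.66, adjusted p = 0.0771, edgeR). It passed against DMSO 15 d with the culture number as a block (1.60, adjusted p = 0.0287, edgeR), with only the compared groups in the fit (1.53, adjusted p = 0.0381, edgeR) and without the 4 libraries with raised rRNA (1.72, adjusted p = 0.0145, edgeR). Against DMSO 35 d, whose libraries did not name the genes, the Krt7 difference was 0.83 (adjusted p = 0.338, edgeR). Krt19 was at 3.59, 3.24 and 1.997 CPM in irradiated cells (log2 difference 0.80 ± 0.40 over DMSO 15 d, adjusted p = 0.142, and 1.07 over DMSO 35 d, adjusted p = 0.0578, edgeR). Krt18 was at 0.805, 0.730 and 0.444 CPM in irradiated cells (log2 difference -0.18 ± 0.69 over DMSO 15 d, adjusted p = 0.872, and 1.78 over DMSO 35 d, adjusted p = 0.0927, edgeR), so the sign of the Krt18 difference depends on the control. Of the 6 genes, 3 were called higher and 0 lower, beside 14.1% of all genes called higher and 16.8% lower. Of the 10 fitted genes of the epidermal differentiation complex list, 4 rose and 1 fell: Sprr1a was at 2.58, 3.30 and 2.22 CPM in irradiated cells, against 0.305, 0.287 and 0.174 CPM in DMSO 15 d (log2 difference 3.42 ± 0.40, adjusted p = 1.999e-06, edgeR).

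Ordered by mean level over the 9 groups, Ivl ran from 7.26 ± 1.6 CPM in KU60019 15 d (SD, n = 3), through 4.35 ± 0.64 CPM in DMSO 35 d removed, 3.59 ± 0.72 CPM in KU60019 35 d removed and 2.03 ± 0.43 CPM in KU60019 35 d, to 0.0363 ± 0.063 CPM in DMSO 15 d. The DMSO 35 d removed and KU60019 35 d removed groups overlapped, as did all neighbours from the irradiated group down. S100a8 was at 38.3 ± 7.2 CPM in KU60019 15 d, 11.6 ± 4.0 CPM in KU60019 35 d removed, 5.43 ± 1.2 CPM in DMSO 35 d removed, 3.68 ± 0.23 CPM in KU60019 35 d and 2.16 ± 0.17 CPM in irradiated cells, with no overlap between neighbours as far as the irradiated group. Crct1 was within overlapping ranges in KU60019 35 d removed, DMSO 35 d removed, KU60019 15 d and KU60019 35 d, at means of 73.2, 62.5, 62.3 and 43.8 CPM. Krt19 was at 40.3 ± 24 CPM in DMSO 35 d removed and 14.6 ± 2.0 CPM in KU60019 15 d, and between 1.43 and 3.49 CPM in the other 7 groups. Krt7 was at 55.7 ± 65 CPM in DMSO 35 d removed and between 0.854 and 3.997 CPM elsewhere. Krt18 did not exceed a mean of 1.87 CPM in any group, and all neighbours in its order overlapped.

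Across the 27 libraries, the levels of Ivl and Crct1 rose and fell together (Pearson r = 0.938 and Spearman rho = 0.921 of log2 CPM), and Ivl and S100a8 likewise (r = 0.891, rho = 0.916). These are descriptions over libraries that fall into 9 groups, share treatments and were chosen for a shared difference. Krt7 and Krt19 gave r = 0.787, and 0.394 over the 24 libraries left without DMSO 35 d removed. Krt18 was nearly unrelated to Ivl (r = 0.0726).

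**Figure D4:**
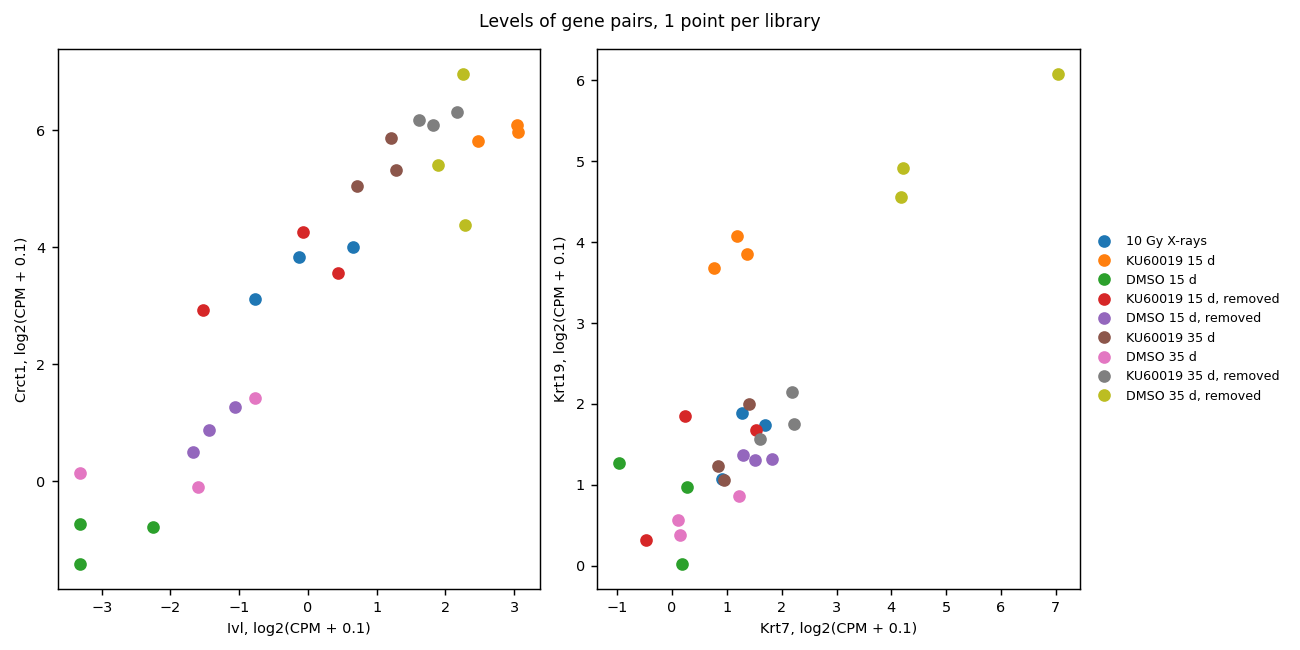
Levels of Crct1 against Ivl (left) and of Krt19 against Krt7 (right), both axes as log2(CPM + 0.1), with 1 point per library and colours for the 9 groups. Crct1 and Ivl lie along 1 line of points, while for the keratins the 3 DMSO 35 d removed libraries and the 3 KU60019 15 d libraries stand apart.

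The genes most like each one, by Pearson correlation over the 27 libraries, differed between the epidermal genes and the keratins. For Ivl they were Crct1 (0.938), the steroid-metabolising enzyme Akr1c18 (0.919), the necroptosis pseudokinase Mlkl, Aif1l and Pbp2. For Crct1 they were Tmem151a (0.953), Ivl, the BH3-only gene Pmaip1, Tmem202 and Sap18. For S100a8 they were Tnfrsf26 (0.928), Amz1, Napa, Akr1c18 and Atp6v1d. For Krt7 they included the acid-sensing channel Asic3 (0.916), Tmem97, Rnf126 and Gltp. For Krt19 they were the chromatin protein gene Hmga1 (0.949), Acot9, Itpripl2, Hmga1b and Tuba4a. Krt18 had no gene above 0.782, reached by Ist1.

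Markers of the cell types that normally carry these genes were unequal in abundance, and their read totals over all 27 libraries follow. Of the 8 simple epithelial markers, Epcam had 20 reads, Cdh1 21, Ocln 20, Esrp1 7, Cldn4 150, Cldn7 332, Cldn3 500 and Esrp2, a splicing regulator, 6423. Of the 8 keratinocyte markers, Dsg3 had 0 reads, Krt14 6, Dsc3 11, Krt5 22, Krt1 41, Trp63 117, Lgals7 240 and Krt10 2416. Of the 12 neutrophil and myeloid markers, the collagenase gene Mmp8 had 155560 reads, Csf3r 654 and Camp 398, while the other 9 had from 1 read (Retnlg) to 74 (Elane), with 2 for Cxcr2, 9 for Ngp and 38 for Ly6g. Epcam, Cdh1, Krt5, Krt14, Ngp and Ly6g were thus near 0, and Esrp2, Krt10 and Mmp8 of the same lists were not.

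The simple epithelial markers had reads for 7 of 8 genes in KU60019 15 d, against 8 of 8 in DMSO 15 d, and summed to 5.42 to 6.83 CPM in KU60019 15 d, against 6.20 to 7.30 CPM in DMSO 15 d. They summed to 12.2 to 16.2 CPM in irradiated cells, 10.9 to 13.3 CPM in KU60019 35 d removed and 12.3 to 18.01 CPM in DMSO 35 d removed. The claudins Cldn3, Cldn4 and Cldn7 rose in KU60019 35 d, with log2 differences of 4.15 ± 1.05, 3.67 ± 1.05 and 1.92 ± 0.47 (adjusted p = 0.00764, 0.0192 and 0.00590, edgeR). Cldn4 rests on 3, 11 and 2 reads in KU60019 35 d, against 0, 0 and 1 in DMSO 35 d. Esrp2, the remaining fitted marker, was not called (-0.49 ± 0.22, adjusted p = 0.127, edgeR). The whole list did not rise, at 5.615 to 6.64 CPM in KU60019 35 d, against 6.11 to 8.67 CPM in DMSO 35 d. Of all genes, 9.7% were called higher and 8.4% lower in KU60019 35 d. The keratinocyte markers had reads for 7 genes in KU60019 15 d, against 3 in DMSO 15 d, and summed to 3.32 to 4.29 CPM in KU60019 15 d, against 2.32 to 5.45 CPM in DMSO 15 d. The neutrophil and myeloid markers summed to 277 to 320 CPM in KU60019 15 d, against 285 to 419 CPM in DMSO 15 d. Nearly all of this was Mmp8, at 318, 288 and 277 CPM in KU60019 15 d, against 281, 418 and 381 CPM in DMSO 15 d.

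The 7 mesothelial markers, of a lining cell that also carries simple keratins, summed to 7.95 to 16.4 CPM in KU60019 35 d, against 3.72 to 4.99 CPM in DMSO 35 d. There Msln (log2 difference 3.09 ± 0.57, adjusted p = 5.99e-04, edgeR) and Wt1 (1.20 ± 0.37, adjusted p = 0.0283, edgeR) rose, and 0 of the 6 fitted markers fell. Of all genes, 9.7% were called higher and 8.4% lower. At 15 days the list did not rise, at 3.04 to 6.32 CPM in KU60019 15 d, against 3.46 to 7.67 CPM in DMSO 15 d. In that contrast Msln was called higher (1.98 ± 0.56, adjusted p = 0.0107) and Wt1 lower (-2.11 ± 0.40, adjusted p = 4.02e-04, both edgeR). What part any of these cells had in the results was not tested.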

How the data were processed

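The RNA was total RNA made into TruSeq libraries, per the labels' protocols. The authors deposited raw read counts per gene, which featureCounts made on mm10 per the notes of the submitters on processing, and TPM values of the same libraries. No source used here names the aligner, the annotation release or the strand setting. Groups came from the sample titles.

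The counts were fitted in edgeR 4.0.16 (R 4.3.3; quasi-likelihood, TMM, filterByExpr with a minimum count of 10) in 1 model of 27 libraries and 18684 genes. A call is a Benjamini-Hochberg adjusted p under 0.05 over all of them, in each of 8 comparisons. Each standard error is approximate, computed as the absolute log2 difference over the root of the F statistic. The steps were tested on simulated data. Alternatives used RLE scaling, library size alone, no filter, only the compared groups, the culture number as a block, DESeq2 1.42.0, limma 3.58.1 on log2(TPM + 1) and log2(TPM + 0.1), each library left out, and DMSO 35 d as the control for irradiation.

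Libraries of the same culture number deviated together in every pair only between KU60019 15 d and DMSO 15 d (r from 0.219 to 0.393), so the numbers were not taken to pair the libraries elsewhere. The closest replicates still differed by a chi-square of 7.18 per gene. Positions are from GENCODE M21, which holds 40606 of the 48440 versioned gene IDs (83.8%) and 5 of the 8 genes in the same version. Genes and lists were chosen with earlier results of these data known. Named were the 8 genes, the 5 genes most correlated with each fitted one, and list genes among the 4 with the lowest p per comparison. Lor, Flg, the fibroblast markers called higher and the marker genes given by read totals were chosen after their values were seen. One gene correlated with Krt7 is not reported here.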

Additional observations from a re-analysis of the deposited data

Results flagged for a closer look

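The KU60019 difference itself differed between conditions for 5 of the 6 fitted genes, by a test of the difference in edgeR. Against the difference under 35 days of exposure, the difference after withdrawal at 35 days was changed by -3.41 on the log2 scale for Ivl, -4.72 for Crct1, -2.61 for S100a8, -4.36 for Krt7 and -4.46 for Krt19, beside 16.6% of all genes called lower and 15.8% higher. The difference after withdrawal at 15 days was changed by -2.11 for Crct1 and -3.06 for S100a8, beside 7.99% of all genes called lower and 7.95% higher. The call for this Crct1 difference of -2.11 was lost under 11 of 22 alternatives. Both tests share the KU60019 35 d and DMSO 35 d libraries. Mean levels of the 5 genes were higher in KU60019 35 d removed than in KU60019 35 d, and higher in DMSO 35 d removed than in DMSO 35 d.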

How the results depend on the processing

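No value changed direction with a call, and Ivl, Crct1 and S100a8 kept their calls for KU60019 35 d and for irradiation under every alternative run, as did Krt7 and Krt19 after withdrawal at 35 days (Krt7 without DESeq2, which gave no adjusted p for Krt7 in any of the 8 comparisons). For the test of withdrawal at 15 days against 35 days of exposure, 1 of the 6 genes was called under RLE scaling and 1 without the filter, and 1 to 2 with a library left out. That test called 2977 of all genes, against 1825 without the filter, 1656 on log2(TPM + 1), 1632 on log2(TPM + 0.1), 1377 on log2(TPM + 1) without a filter, and 1583 to 4970 with a library left out. After withdrawal at 15 days, 2 of the 6 genes were called by DESeq2, both higher (Crct1 and Ivl), and 2 of the 5 genes tested on log2(TPM + 0.1), Crct1 higher and Krt7 lower, and 1 to 2 of 6 with a library left out. On log2(TPM + 0.1) the median of all genes in that comparison was -0.59. Under 35 days of exposure, Krt19 passed with only the compared groups in the fit (0.98, adjusted p = 0.0459, over a range of 0.0459 to 0.455 among its alternatives). After withdrawal at 35 days, 5487 genes were called in the compared groups alone and 5596 without the 4 libraries with raised rRNA, an alternative chosen after seeing the data, against 9130. Without those libraries 7381 genes were called for DMSO 35 d removed, against 11978, and 2966 for the second difference test, against 6060. With a library left out, 3639 to 7079 genes were called at 15 days and 1932 to 3586 at 35 days, the lowest without DMSO 15 d library S1 and DMSO 35 d library S15, and DMSO 35 d library S14 (2023) and KU60019 35 d library S18 (2221) also moved the count at 35 days. With library size alone, the median log2 difference of all genes was -0.13 after withdrawal at 15 days, 0.29 after withdrawal at 35 days, -0.29 for DMSO 35 d removed, -0.12 for the first difference test and 0.34 for the second. The calls that were higher then numbered 3761 of 8711, 6355 of 9024, 4389 of 11699, 1146 of 2578 and 4504 of 6267, in that order, against 4615 of 9096, 4554 of 9130, 5889 of 11978, 1485 of 2977 and 2952 of 6060 with TMM. The replicate block gave 3 of the 6 genes called for KU60019 35 d and 4 for irradiation, where Krt7 was added (adjusted p = 0.0287, over a range of 0.0145 to 0.353 among its alternatives), and it changed no other call among the 6 genes. The cause of these changes was not tested. At this depth S100a9 and Krt8 could not be compared.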
